A study of Mus musculus with 18 samples.

Results

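The costimulatory and inhibitory receptors of Tregs are surface proteins that set how strongly a T cell responds when its antigen receptor is engaged. They were taken as a list of 10 genes, Cd28, Icos, Cd226, Ctla4, Pdcd1, Btla, Tigit, Havcr2, Lag3 and Cd5, out of 35865 genes listed under a single name in the RNA-seq table. They are listed by name, with no threshold on a measured value. All 10 were among the 15240 genes that passed the filter on low values. YFP+ cells were sorted from CD4+ T cells of the spleen and profiled by RNA-Seq, with 1 library from each of 2 WT mice and 2 Chd8-/- mice. Chd8 encodes a chromatin remodeler of the CHD family. The labels give the Chd8-/- genotype as CHD8Flox/FloxFoxp3YFP-Cre and that of the WT libraries as CHD8flox/floxFoxp3YFP-Cre/+, while the study describes its WT mice as carrying Foxp3YFP-Cre without floxed Chd8. Cre is driven from the Foxp3 locus, so the deletion is directed to Tregs, and mice of both genotypes carry the Cre and YFP reporter. The labels give it as Foxp3YFP-Cre/+ in WT and as Foxp3YFP-Cre in Chd8-/- mice, so its dose may differ. If the WT label holds, the sorted YFP+ cells of WT mice would carry Cre together with floxed Chd8, and this was not resolved here. A Poly IC injection is the labelled treatment of every library. The mice were littermates a few weeks old, and the study describes both sexes in each genotype. The study reports fatal inflammation at a young age in its Chd8-/- mice, so genotype and disease cannot be told apart in the comparisons below. Xist was listed at 500.2 to 843.3 TPM and 4 Y-linked genes were at 0 in all 4 libraries. No library thus showed the RNA of a male mouse, which differs from the study's description of both sexes.

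Tregs depend on CD28, which binds CD80 and CD86 on antigen-presenting cells and lowers the threshold for activation. CTLA-4 binds the same ligands with higher affinity, removes them from antigen-presenting cells and is a main means by which Tregs suppress. ICOS is a CD28 relative that binds ICOSL and signals through PI3K, and PD-1, BTLA, TIGIT, TIM-3 (encoded by Havcr2), LAG-3 and CD5 restrain T cell signaling, whereas CD226 activates it and competes with TIGIT for CD155 (encoded by Pvr). In effector Tregs, several of these receptors, CTLA-4, ICOS, TIGIT and TIM-3 among them, are known to be more abundant than in resting Tregs. That list is not complete, and the receptors named in it are those found higher below. No receptor left out of it had both Chd8-/- libraries above both WT libraries. Among those left out, Pdcd1, which encodes PD-1, had a log2 fold change of -0.36 (Chd8-/- minus WT). Lag3 was at 7.0 and 36.4 TPM in the Chd8-/- libraries, on either side of the WT libraries. An effector state of these Tregs was not tested.

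Chd8 itself, the targeted gene, was listed at 24.7 and 27.6 TPM in WT Tregs and at 14.9 and 11.4 TPM in Chd8-/- Tregs. Both Chd8-/- libraries were below both WT libraries, with a log2 fold change of -0.95 (SE 0.29, adjusted p = 0.455 by limma). TPM is a read count scaled by gene length and by the library total, so that every library has the same sum. Log2 fold changes are Chd8-/- minus WT on the log2(TPM + 1) scale, which understates changes of low genes. The 6 Treg markers (Cd3e, Cd4, Foxp3, Il2ra, Ikzf2 and Tnfrsf18) were present in every library, with a summed level of 2992.7 to 3471.0 TPM, and Foxp3 was at 202.8 and 215.4 TPM in WT and at 232.1 and 205.3 TPM in Chd8-/- Tregs. Depth, estimated from the step between low values, was between 9240674 and 13199147 reads per library. Chd8-/- replicate 2 stood apart in markers of other cells. The 8 myeloid markers (Lyz2, Csf1r, Itgam, Itgax, Cd14, Adgre1, S100a8 and S100a9) summed to 1443.6 TPM there, against 104.6 and 79.7 TPM in the WT libraries and 25.7 TPM in Chd8-/- replicate 1, and the 5 listed B cell markers summed to 139.6 TPM against 29.7 to 43.8 TPM in the other libraries. The 6 markers of CD8 and NK cells summed to 45.0 and 30.6 TPM in WT and to 11.3 and 51.2 TPM in Chd8-/- libraries. In bulk libraries, fewer cells that express a gene and less RNA per cell cannot be told apart.

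Of the 10 receptor genes, 4 had both Chd8-/- libraries above both WT libraries, namely Havcr2, Icos, Tigit and Ctla4, and 1, Btla, had both below. In the whole table, the genotypes did not overlap in these ways for 14.8% and 27.8% of the genes tested, or 42.6% in either direction. The log2 fold change reached 1 or more for 2 of the 10, Havcr2 and Icos, both higher in Chd8-/- Tregs, against 5.12% of all genes in that direction, and for 0 of the 10 in the lower direction, against 11.6%. An unadjusted limma p under 0.05 was found for 3 of the 10, Havcr2, Icos and Tigit, all higher, against 3.9% of all genes in that direction and 10.2% in either. None of the 10 passed an adjusted p of 0.05, as was the case for all 15240 genes (0.0% called), so the differences below are sizes with their errors and not calls. The median log2 fold change was 0.07 over the 10 receptors and -0.15 over all genes tested. Leaving out a library cannot take a gene out of the set without overlap, and without Chd8-/- replicate 2, which carries the most myeloid RNA, Cd28 was also above both WT libraries.

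**Figure D1:**
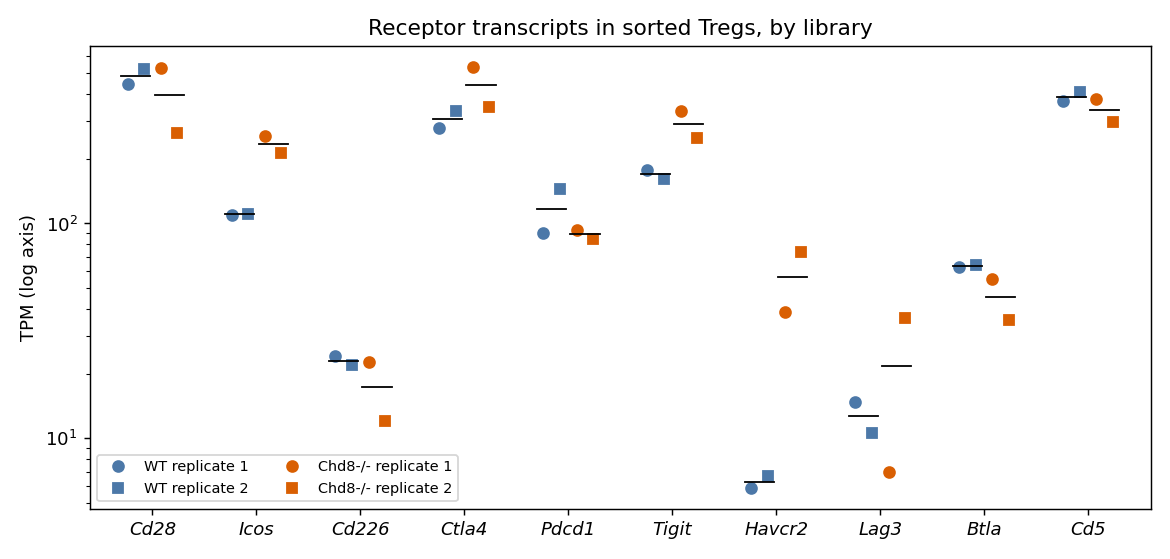
TPM (log axis) of the 10 receptor genes in each library, with WT in blue and Chd8-/- in orange, circles for replicate 1 and squares for replicate 2, and a black line at the mean of each genotype. Havcr2, Icos, Tigit and Ctla4 have both orange points above both blue points, and Btla has both below.

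The promoters of the receptors are shown to give the sequence context of the genes that were higher. RefSeq promoter entries (GRCm38.p6) were matched for 6 of the 10 genes, Ctla4, Pdcd1, Tigit, Havcr2, Btla and Cd5. The 250 bases before the start given in the RefSeq promoter table are printed 5' to 3' on the strand of the gene for 3 of the higher genes and, for contrast, for Pdcd1. For Tigit, Btla and Cd5 this start lies inside the full annotated span of the gene, which covers all RefSeq transcripts, so that their windows reach into that span. Capitals mark matches on either strand to TGANTCA (AP-1, bound by BATF with JUN), GGAAA (the NFAT core) and TGTGGT (RUNX). The forkhead letters GTAAACA were searched as well. The same holds for the TATA box letters TATAAA, and neither is in these 6 windows.
Havcr2 (chr11:46454681-46454930, plus strand): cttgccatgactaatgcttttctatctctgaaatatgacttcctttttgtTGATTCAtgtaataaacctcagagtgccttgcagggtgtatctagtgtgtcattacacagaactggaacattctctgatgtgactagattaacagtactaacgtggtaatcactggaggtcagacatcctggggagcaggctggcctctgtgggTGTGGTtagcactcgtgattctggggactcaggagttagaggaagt
Tigit (chr16:43664185-43664434, minus strand): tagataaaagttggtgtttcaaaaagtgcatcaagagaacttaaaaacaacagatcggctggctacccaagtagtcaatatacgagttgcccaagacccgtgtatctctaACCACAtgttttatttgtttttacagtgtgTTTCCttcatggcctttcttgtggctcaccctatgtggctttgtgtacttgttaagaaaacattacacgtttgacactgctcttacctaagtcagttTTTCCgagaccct
Ctla4 (chr1:60908775-60909024, plus strand): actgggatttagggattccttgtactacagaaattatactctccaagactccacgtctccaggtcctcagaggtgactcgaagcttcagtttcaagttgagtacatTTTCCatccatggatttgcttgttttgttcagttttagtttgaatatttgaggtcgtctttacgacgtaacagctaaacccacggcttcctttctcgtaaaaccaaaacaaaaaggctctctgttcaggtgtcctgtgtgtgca
Pdcd1 (chr1:94052554-94052803, minus strand): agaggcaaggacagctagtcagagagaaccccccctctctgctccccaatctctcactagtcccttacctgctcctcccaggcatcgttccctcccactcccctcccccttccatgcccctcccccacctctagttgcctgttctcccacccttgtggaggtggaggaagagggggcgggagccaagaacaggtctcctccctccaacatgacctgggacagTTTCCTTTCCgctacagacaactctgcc
The AP-1 letters occurred in the Havcr2 window alone among the 6, with a first base 200 bases before the start, and 6.75% of the 32851 promoter windows in the table hold them. The RUNX letters occurred in the Havcr2, Tigit and Btla windows and in 14.0% of all windows. The NFAT core occurred in the Ctla4 window, in the Pdcd1 window as 2 adjoining copies and in the Tigit window as 2 copies, and in 55.6% of all windows. The forkhead letters were held by 3.17% and the TATA letters by 12.4% of all windows. These matches are descriptions of the letters. Binding was not measured here.

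Havcr2 encodes TIM-3, an inhibitory receptor of effector and exhausted T cells, and lies at chr11:46454931-46481255 on the plus strand. Its transcript was at 5.9 and 6.7 TPM in WT Tregs and at 38.7 and 73.8 TPM in Chd8-/- Tregs. Both Chd8-/- libraries were thus far above both WT libraries, which lay close together. The mean was 6.3 ± 0.566 TPM in WT and 56.25 ± 24.8 TPM in Chd8-/- Tregs (SD, n = 2 each). The log2 fold change was 2.90 (SE 0.41, 95% interval 1.81 to 4.00, adjusted p = 0.373 by limma), the 69th highest of 15240. The estimated reads behind the values were 78 and 94 in WT and 712 and 1061 in Chd8-/- libraries. Their exact Poisson 95% intervals, which cover counting error only, were 4.64 to 7.32 and 5.39 to 8.16 TPM in WT, and 35.9 to 41.7 and 69.5 to 78.4 TPM in Chd8-/- Tregs. The log2 value of Chd8-/- replicate 1 alone exceeded the WT mean by 2.45 and that of replicate 2 by 3.36.

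TIM-3 is also found on myeloid cells, so the myeloid markers are set beside Havcr2. Chd8-/- replicate 1 had the lowest summed myeloid level of the 4 libraries, with 4 of the 8 markers (Itgax, Cd14, Adgre1 and S100a9) at 0, Csf1r at 0.2 TPM and Lyz2 at 20.0 TPM. S100a8 went the other way, with 5.3 TPM in this library and 16.5 TPM in Chd8-/- replicate 2, while each WT library was at 0. The Havcr2 level of Chd8-/- replicate 1 was 38.7 TPM, above both WT libraries. The myeloid sum of both WT libraries was higher. In Chd8-/- replicate 2, none of the 8 markers was at 0 and Lyz2 was at 1360.3 TPM. The part of myeloid RNA in the Havcr2 levels of 38.7 and 73.8 TPM was not tested.

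**Figure D2:**
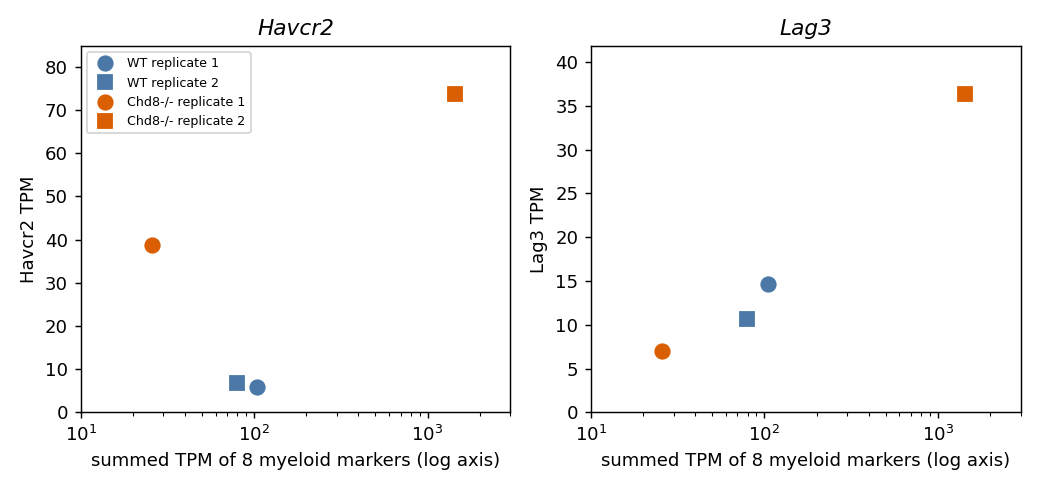
Havcr2 (left) and Lag3 (right) in TPM against the summed TPM of 8 myeloid markers (log axis), 1 point per library, WT in blue and Chd8-/- in orange. Havcr2 is at 38.7 TPM in the library with the lowest myeloid sum and at 73.8 TPM in that with the highest. The order of Lag3 over the 4 libraries is that of the myeloid sum. The part of myeloid RNA in either gene was not tested.

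Lag3 encodes LAG-3, which binds MHC class II and restrains CD4+ T cells, and lies at chr6:124904359-124912434 on the minus strand. It was listed at 14.7 and 10.6 TPM in WT Tregs and at 7.0 and 36.4 TPM in Chd8-/- Tregs. The Chd8-/- libraries lay on either side of the WT libraries. The log2 fold change was 0.36 (SE 0.82, 95% interval -1.85 to 2.56, adjusted p = 0.898 by limma), and it was 1.47 without Chd8-/- replicate 1 and -0.75 without Chd8-/- replicate 2. The estimated reads were 144, 110, 95 and 385 in the order of the values above, so counting error was small beside the distance between the Chd8-/- libraries. Lag3 was highest in the library with the highest myeloid sum and lowest in that with the lowest, and the part of other cells in this was not tested.

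Icos encodes an inducible costimulator that sustains effector Tregs, and lies at chr1:60960773-61000322 on the plus strand. Its transcript was at 110.0 and 110.3 TPM in WT Tregs and at 254.0 and 212.5 TPM in Chd8-/- Tregs. The WT libraries were nearly identical and both Chd8-/- libraries were higher. The log2 fold change was 1.07 (SE 0.19, 95% interval 0.57 to 1.57, adjusted p = 0.402 by limma), a 2.10-fold difference and the 693rd highest of all genes. Leaving out 1 library at a time gave values of 0.94 to 1.20. The value of 0.94, obtained without Chd8-/- replicate 1, and that after quantile normalization, just under 1.00, were short of a log2 fold change of 1.

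Tigit encodes an inhibitory receptor that marks suppressive Tregs, and lies at chr16:43626137-43665125 on the minus strand. Its transcript was at 177.6 and 161.7 TPM in WT Tregs and at 333.6 and 249.7 TPM in Chd8-/- Tregs. The genotypes did not overlap, and the log2 fold change was 0.76 (SE 0.22, 95% interval 0.18 to 1.35, adjusted p = 0.441 by limma). The annotated span of Tigit overlaps Zbtb20 and Mir568 on the opposite strand, and the strand setting of the counting is not given in the sources used here. Zbtb20 was at 0.6 to 1.8 TPM in the 4 libraries, and Mir568 was at 150.6 and 83.9 TPM in WT and at 107.2 and 0.0 TPM in Chd8-/- libraries. The exons of Tigit cover 963 nt in curated RefSeq transcripts and 24855 nt when predicted ones are included, so the rank of its TPM among the receptors depends on the gene model used.

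Ctla4 lies at chr1:60909025-60915832 on the plus strand. Its transcript was at 277.6 and 332.8 TPM in WT Tregs and at 534.7 and 349.5 TPM in Chd8-/- Tregs. Chd8-/- replicate 2 was only slightly above WT replicate 2, so the absence of overlap rests on a small gap. The log2 fold change was 0.51 (SE 0.27, 95% interval -0.22 to 1.23, adjusted p = 0.591 by limma). It was 0.81 without Chd8-/- replicate 2 and 0.20 without Chd8-/- replicate 1.

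The other 5 receptors had means below those of the WT libraries. Cd28, the primary costimulatory receptor at chr1:60746388-60773359 on the plus strand, was at 447.8 and 522.7 TPM in WT Tregs and at 527.1 and 264.0 TPM in Chd8-/- Tregs. The Chd8-/- libraries enclosed the WT libraries, and the log2 fold change of -0.37 (SE 0.38, 95% interval -1.39 to 0.64, adjusted p = 0.763 by limma) became 0.12 without Chd8-/- replicate 2. Cd226, on chromosome 18, was at 24.1 and 21.9 TPM in WT Tregs and at 22.7 and 12.0 TPM in Chd8-/- Tregs. As with Cd28, only Chd8-/- replicate 2 was low, and the log2 fold change was -0.45 (SE 0.39, adjusted p = 0.726 by limma). It was -0.88 without Chd8-/- replicate 1 and -0.02 without Chd8-/- replicate 2.

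Pdcd1 encodes PD-1, which recruits phosphatases to the antigen receptor and CD28, and lies at chr1:94038305-94052553 on the minus strand. Its transcript was at 90.6 and 144.0 TPM in WT Tregs and at 93.7 and 84.5 TPM in Chd8-/- Tregs. The groups overlapped and the spread was larger between the WT libraries than between the Chd8-/- libraries. The log2 fold change was -0.36 (SE 0.29, 95% interval -1.14 to 0.42, adjusted p = 0.707 by limma), and it was -0.69 without WT replicate 1 and -0.03 without WT replicate 2. Set against the WT mean, the Chd8-/- libraries differed by -0.28 and -0.43 on the log2 scale.

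Btla encodes an inhibitory receptor for HVEM and lies at chr16:45223705-45252895 on the plus strand. It was at 62.9 and 64.1 TPM in WT Tregs and at 55.4 and 35.6 TPM in Chd8-/- Tregs. Both Chd8-/- libraries were lower, replicate 1 by a small margin, with a log2 fold change of -0.51 (SE 0.29, 95% interval -1.29 to 0.28, adjusted p = 0.613 by limma). It was -0.82 without Chd8-/- replicate 1 and -0.19 without Chd8-/- replicate 2. Cd5, a scavenger receptor family member that dampens antigen receptor signaling and lies at chr19:10718107-10739026 on the minus strand, was at 371.1 and 406.9 TPM in WT Tregs and at 377.7 and 298.0 TPM in Chd8-/- Tregs. The groups overlapped, with a log2 fold change of -0.21 (SE 0.19, 95% interval -0.73 to 0.31, adjusted p = 0.739 by limma). Without Chd8-/- replicate 1 it was -0.38 and without Chd8-/- replicate 2 it was -0.04.

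**Figure D3:**
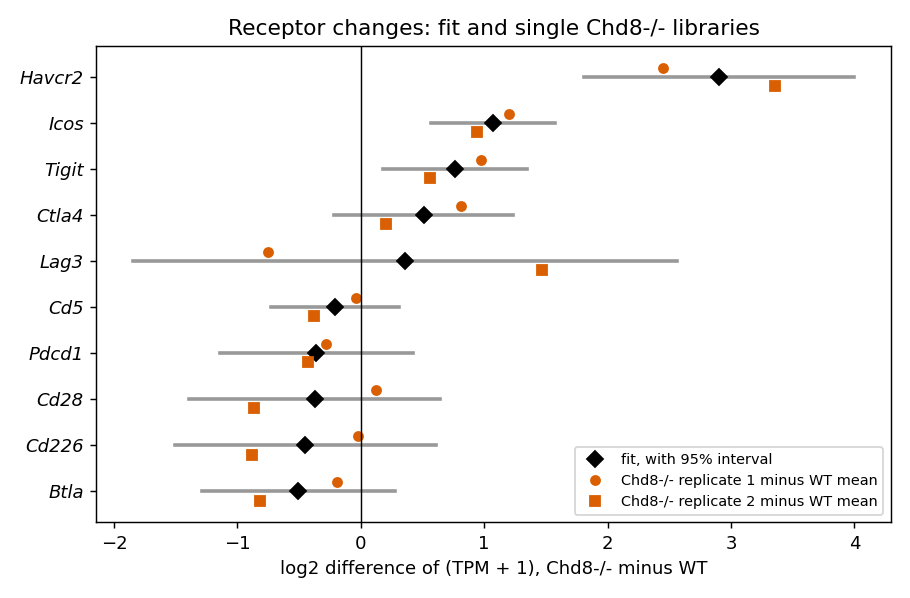
Log2 difference of (TPM + 1), Chd8-/- minus WT, for each receptor gene. Diamonds are the limma estimates with 95% intervals (grey), and orange points are the single Chd8-/- libraries minus the WT mean. The intervals of Havcr2, Icos and Tigit lie above 0, and the points of Lag3 and Cd28 lie on either side of 0.

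The order of the receptor levels, which TPM allows to be compared per length, also differed between the genotypes. In WT Tregs it was Cd28, Cd5, Ctla4, Tigit, Pdcd1, Icos, Btla, Cd226, Lag3 and Havcr2 from the highest mean of 485.2 TPM to the lowest of 6.3 TPM. Among neighbours in that order, only Pdcd1 and Icos had ranges that overlapped. In Chd8-/- Tregs Ctla4 came first with a mean of 442.1 TPM and Cd226 last with 17.35 TPM. Most neighbours overlapped there, the exceptions being Icos over Pdcd1 and Pdcd1 over Havcr2. Havcr2 was the lowest of the 10 in both WT libraries and was above Cd226 and Lag3 in both Chd8-/- libraries. The 10 receptors summed to 1582.3 and 1781.7 TPM in WT and to 2244.6 and 1616.0 TPM in Chd8-/- libraries, so the sums of the genotypes overlapped. As a share of this sum, Icos took 6.95% and 6.19% in WT and 11.3% and 13.1% in Chd8-/- Tregs. Cd28 took 28.3% and 29.3% in WT and 23.5% and 16.3% in Chd8-/- Tregs.

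Pairs of receptors were compared as ratios within a library, which do not depend on how libraries were scaled to each other. CTLA-4 and CD28 compete for CD80 and CD86. The ratio of Ctla4 to Cd28 was 0.620 and 0.637 in WT Tregs and 1.01 and 1.32 in Chd8-/- Tregs. Cd28 was thus the more abundant transcript of the pair in both WT libraries and Ctla4 in both Chd8-/- libraries. The difference was 0.88 on the log2(TPM + 1) scale, with an exact two-sided permutation p = 0.333, the smallest that 2 against 2 libraries allow. TIGIT and CD226 compete for CD155. The ratio of Tigit to Cd226 was 7.37 and 7.38 in WT Tregs and 14.7 and 20.8 in Chd8-/- Tregs, a log2 difference of 1.21 (exact permutation p = 0.333). Pdcd1 and Icos are often raised together on activated T cells. The ratio of Pdcd1 to Icos was 0.824 and 1.31 in WT Tregs and 0.369 and 0.398 in Chd8-/- Tregs, a log2 difference of -1.43 (exact permutation p = 0.333). In all 3 pairs the ratios of the genotypes did not overlap. The differences ranged from 0.69 to 1.07, from 0.99 to 1.44 and from -1.76 to -1.10 with 1 library left out in turn. Each pair holds a receptor that already differed without overlap (Ctla4, Tigit and Icos), so the ratios in part restate the values above. The share of all gene pairs without overlap was not computed.

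**Figure D4:**
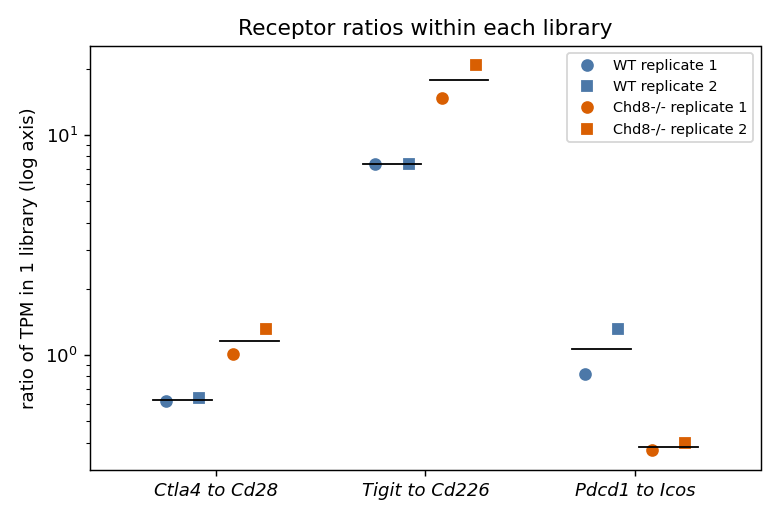
Ratio of TPM between 2 receptors in each library (log axis), WT in blue and Chd8-/- in orange, circles for replicate 1 and squares for replicate 2, with a black line at the mean of each genotype. Ctla4 to Cd28 and Tigit to Cd226 are higher and Pdcd1 to Icos is lower in both Chd8-/- libraries than in both WT libraries.

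Cd28, Ctla4 and Icos are neighbours on chromosome 1 and are read in the same direction, with 135.7 kb between Cd28 and Ctla4 and 44.9 kb between Ctla4 and Icos and 0 protein-coding genes in these gaps. Their log2 fold changes were -0.37, 0.51 and 1.07. The order Cd28, Ctla4, Icos held in each Chd8-/- library set against the WT mean. The differences were 0.12, 0.81 and 1.20 in replicate 1 and -0.87, 0.20 and 0.94 in replicate 2. Raph1, on the other side of Cd28, was at 2.4 and 3.8 TPM in WT and at 4.1 and 4.2 TPM in Chd8-/- Tregs (log2 fold change 0.35, SE 0.41). Cd4, the gene next to Lag3 at a distance of 16.1 kb, was at 403.4 and 431.8 TPM in WT and at 326.2 and 323.6 TPM in Chd8-/- Tregs (log2 fold change -0.36, SE 0.15). Cd6, the relative of Cd5 at a distance of 50.3 kb, was at 111.1 and 122.3 TPM in WT and at 107.1 and 114.9 TPM in Chd8-/- Tregs.

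Ligands of these receptors were read in the same sorted cells. Of 13 ligand genes, 9 passed the filter, and their median log2 fold change was 0.16. Of these 9, 3 were higher without overlap (Cd80, Icosl and Cd274) and 2 lower (Cd86 and Pvr), against 14.8% and 27.8% of all genes. The B7 ligands of CD28 and CTLA-4 went in opposite directions. Cd80 was at 7.7 and 7.6 TPM in WT Tregs and at 51.7 and 18.4 TPM in Chd8-/- Tregs (log2 fold change 1.89, SE 0.56, adjusted p = 0.451 by limma). Cd86 was at 29.8 and 27.6 TPM in WT Tregs and at 10.5 and 12.1 TPM in Chd8-/- Tregs (log2 fold change -1.27, SE 0.27, adjusted p = 0.403 by limma). Cd80 was highest in Chd8-/- replicate 1, the library with the lowest myeloid sum. The part of other cells in the Cd80 and Cd86 levels was not tested. Pvr, which encodes the ligand CD155 of TIGIT and CD226, was at 76.2 and 54.4 TPM in WT Tregs and at 29.2 and 10.0 TPM in Chd8-/- Tregs (log2 fold change -1.84, SE 0.57, adjusted p = 0.455 by limma). The groups of these 3 genes did not overlap. The PD-1 ligand genes Cd274 and Pdcd1lg2 had log2 fold changes of 0.35 (SE 0.18) and 0.16 (SE 0.23). Cd274 was at 146.5 and 167.9 TPM in WT Tregs and at 191.4 and 209.0 TPM in Chd8-/- Tregs, while the groups of Pdcd1lg2 overlapped. Icosl was at 7.5 and 12.1 TPM in WT Tregs and at 21.1 and 13.3 TPM in Chd8-/- Tregs. Lgals9, whose product galectin-9 binds TIM-3, was at 182.2 and 245.1 TPM in WT and at 169.0 and 210.9 TPM in Chd8-/- Tregs, and Tnfrsf14, which encodes the BTLA ligand HVEM, had a log2 fold change of 0.04 (SE 0.28).

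**Figure D5:**
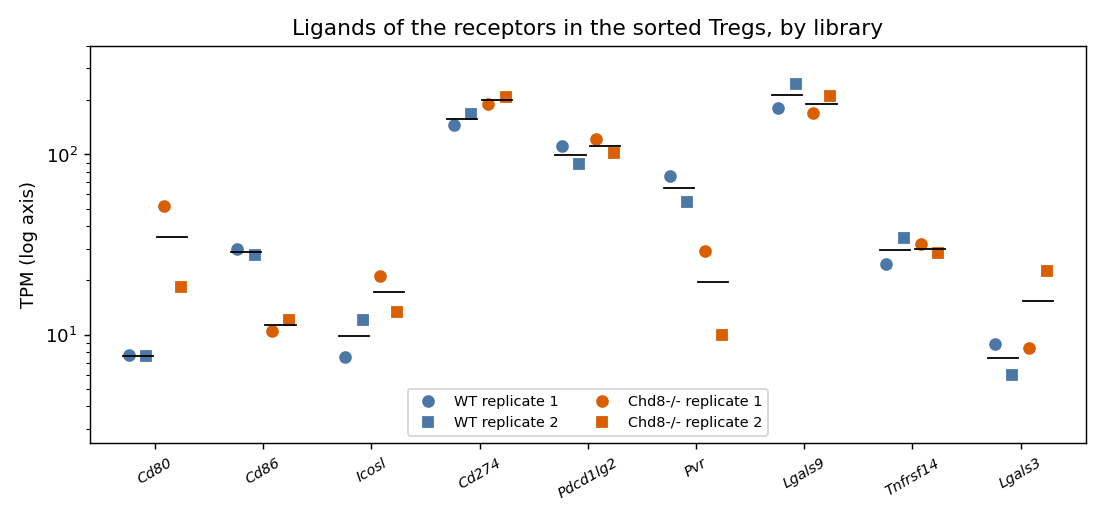
TPM (log axis) of the 9 ligand genes that passed the filter in each library, WT in blue and Chd8-/- in orange, circles for replicate 1 and squares for replicate 2, with a black line at the mean of each genotype. Cd80 is higher and Cd86 and Pvr are lower in both Chd8-/- libraries than in both WT libraries.

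Receptors related to these by family or ligand were read from the same fit. Of 15 related receptor names, 14 were found in the RNA-seq data and all 14 passed the filter. Of these 14, 2 were higher without overlap (Cd2 and Cd200) and 3 lower (Cd160, Vsir and Cd84). The median log2 fold change of the list was -0.14. The largest of these was Cd160, a BTLA-like receptor for HVEM, at 10.9 and 12.3 TPM in WT Tregs and 6.0 and 3.0 TPM in Chd8-/- Tregs (log2 fold change -1.25, SE 0.43, adjusted p = 0.477 by limma). Cd96, a TIGIT relative, was at 309.8 and 321.0 TPM in WT and at 371.6 and 236.6 TPM in Chd8-/- Tregs, so the groups overlapped.

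Among 13 effectors that carry signals from activating tails, 1 was higher without overlap (Pik3cb) and 6 lower (Pik3r1, Pik3cd, Grb2, Grap2, Lck and Prkcq). Their median log2 fold change was -0.16. Grap2, which encodes the adaptor GADS bound by CD28, was at 103.3 and 107.3 TPM in WT Tregs and at 63.9 and 56.6 TPM in Chd8-/- Tregs (log2 fold change -0.80, SE 0.19, adjusted p = 0.427 by limma). Prkcq, which encodes protein kinase C theta, a kinase recruited by CD28, was at 120.9 and 140.2 TPM in WT Tregs and at 86.8 and 89.3 TPM in Chd8-/- Tregs (log2 fold change -0.56, SE 0.19, adjusted p = 0.471 by limma). In both genes the lower Chd8-/- level was seen in each library. Among 13 effectors of inhibitory tails, such as the phosphatases Ptpn6 and Ptpn11, 3 were higher without overlap (Ptpn11, Dok2 and Ubash3a) and 4 lower (Ptpn2, Cbl, Cblb and Csk), and the log2 fold changes stayed between -0.37 and 0.32. Among 13 tested genes of 14 that act in surface traffic and turnover of these receptors, such as Lrba, which protects CTLA-4 from degradation, 2 were higher without overlap (Trat1 and Adam10) and 0 lower. Lrba was at 17.1 and 17.0 TPM in WT and at 17.2 and 15.3 TPM in Chd8-/- Tregs. The shares of all genes without overlap given above apply to each of these counts.

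Of 18 regulators of transcription that act on these receptors, 4 were higher without overlap (Batf, Prdm1, Irf4 and Nfil3), against 14.8% of all genes. The 10 lower were Nfatc1, Nfatc2, Tox, Maf, Tbx21, Tcf7, Lef1, Bach2, Nr4a1 and Nr4a3, against 27.8% of all genes. Maf was at 247.9 and 204.0 TPM in WT Tregs and at 195.3 and 148.0 TPM in Chd8-/- Tregs. The median over these regulators was -0.26 on the log2 scale. Batf, an AP-1 factor of effector Tregs, was at 231.1 and 207.1 TPM in WT Tregs and at 502.4 and 784.6 TPM in Chd8-/- Tregs (log2 fold change 1.52, SE 0.27, adjusted p = 0.402 by limma). Prdm1, which encodes the effector regulator Blimp-1, was at 5.3 and 6.6 TPM in WT Tregs and at 11.4 and 17.6 TPM in Chd8-/- Tregs (log2 fold change 1.13, SE 0.38, adjusted p = 0.470 by limma). For both genes Chd8-/- replicate 2 was the highest and both WT libraries were close together. That replicate also had the highest sums of myeloid and B cell markers. The part of other cells in the Batf and Prdm1 levels was not tested. Bach2, a repressor that keeps Tregs in a resting state, was at 19.2 and 24.6 TPM in WT Tregs and at 7.0 and 8.1 TPM in Chd8-/- Tregs (log2 fold change -1.41, SE 0.32, adjusted p = 0.408 by limma). Tcf7, which encodes TCF-1, a factor of resting and memory T cells, was at 324.4 and 323.8 TPM in WT Tregs and at 208.5 and 197.1 TPM in Chd8-/- Tregs (log2 fold change -0.67, SE 0.16, adjusted p = 0.417 by limma). Tbx21, which encodes T-bet, was at 12.9 and 5.0 TPM in WT Tregs and at 2.7 and 1.9 TPM in Chd8-/- Tregs (log2 fold change -1.48, SE 0.56, adjusted p = 0.493 by limma). Bach2 and Tcf7 were thus lower by similar amounts in both Chd8-/- libraries. Among Bach2, Tcf7 and Tbx21, the last varied most between the WT libraries. Foxp3 had a log2 fold change of 0.06 (SE 0.17), and Tox and Nfatc1, regulators of Pdcd1, had -0.31 (SE 0.19) and -0.27 (SE 0.21). Of the Treg markers, Tnfrsf18, which encodes the costimulatory receptor GITR, was at 169.5 and 236.5 TPM in WT Tregs and at 381.9 and 289.4 TPM in Chd8-/- Tregs (log2 fold change 0.73, SE 0.26, adjusted p = 0.481 by limma).

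Genes whose pattern over the 4 libraries was most like that of a receptor were found by the root mean square (RMS) distance of centred log2 values among 9635 other genes with a mean log2(TPM + 1) of at least 3. For Icos these were D830030K20Rik, Ttc39c and Apobec1, at RMS distances of 0.051, 0.052 and 0.061. Ttc39c, for example, was at 19.7 and 20.5 TPM in WT and at 48.1 and 36.7 TPM in Chd8-/- Tregs, and 12 genes lay within 0.1 of Icos. For Ctla4 they were Usmg5, Cd151 and Myl12a (0.030, 0.037 and 0.045), with 32 genes within 0.1, and for Pdcd1 they were Scand1, Zfp598 and Lpar5 (0.018, 0.018 and 0.019), with 62 genes within 0.1. With 4 libraries many genes share a pattern closely, and these names are a description only.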

How the data were processed

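RNA-seq values of YFP+ Tregs from 2 WT and 2 Chd8-/- mice were used, grouped by GEO's labels. According to the study and the submitters' processing notes, the authors trimmed reads with Trim Galore 0.4.2 and cutadapt 1.9.1, aligned them to mm10 with STAR 2.6.1e, removed duplicates, counted reads on RefSeq genes with featureCounts 1.6.2 and deposited TPM rounded to 0.1. Removing duplicates can lower the values of very abundant transcripts. ATAC-seq and CHIP-seq values, given by peaks on mm39 without gene names, were not analysed here. The members and gene lists were chosen with earlier results of these data known, and 1 gene of a list is not reported here.

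Genes with at least 1 TPM in 2 or more libraries were compared as log2(TPM + 1) with limma 3.58.1 in R 4.3.3 (lmFit and eBayes with trend, two-sided, no covariates, Benjamini-Hochberg adjustment over all 15240 genes). The limma fit was also run on simulated data. There the spread depended only on the mean level and no library stood apart, unlike in these data. Left out were 4 entries under repeated names. TPM of short genes (50 to 200 nt) were whole multiples of 1 read for 98.1% to 99.2% of values, within 0.15 of a read. For genes of 200 to 600 nt this held for 52.0% to 58.9%. Read numbers are thus estimates that use RefSeq exon lengths. Those of single genes use the smaller of the lengths with and without predicted transcripts. Ratios were tested with exact permutation in scipy 1.17.1. P-values measure the spread between single libraries, 1 per mouse. Named were all 10 receptors, Chd8, genes of the other lists with a log2 fold change of at least 1 either way and groups that do not overlap or an unadjusted p under 0.05, and the 3 genes most like Ctla4, Icos and Pdcd1. Other genes named from the lists are examples chosen after their values were seen. Promoters and positions came from RefSeq GRCm38.p6. The alternatives were other pseudocounts, filters, quantile normalization, eBayes without trend, a replicate block, each library left out and, added after the data were seen, the median change set to 0.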

Additional observations from a re-analysis of the deposited data

How the results depend on the processing

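The comparison rests on 2 mice per genotype and on TPM whose read numbers are estimates, and Chd8-/- replicate 2 holds more RNA of other cells than the rest. The adjusted p of 0.05 was passed by 0 of the 10 receptors under every alternative run. Over all genes, 0 passed with limma, and 1555 had an unadjusted p under 0.05. With a mean TPM of at least 5, 2 genes passed (Mir7649 and Cdkn1a), and 1149 were lower by a log2 fold change of at least 1. Without a filter 415 passed, of which 407 had equal values within both groups and 8 had passed the filter. A pseudocount of 5 TPM left 362 genes higher and 690 lower by that amount, from 781 and 1768. Setting the median to 0 gave 1056 higher and 1376 lower, and quantile normalization gave 1146 and 1231. Quantile normalization left 1 receptor at a log2 fold change of at least 1 (Havcr2) and put 3 receptors lower without overlap (Btla, Pdcd1 and Cd5). Genes of surface traffic and turnover without overlap in either direction then numbered 5, from 2. The share of all genes without overlap was not computed for this setting. The signs of Havcr2, Icos, Tigit and Ctla4 held in every alternative, which for a left-out library follows from groups that do not overlap, and Havcr2 ranged from 2.38 to 3.36. With 1 library left out, groups are easier to separate because one side holds a single library, assumed to vary like the others. Genes past that fold then numbered 989 to 1371 higher and 1447 to 3107 lower. Receptors lower without overlap numbered 2 to 5, ligands without overlap 6 to 9, related receptors 7 to 12, activating effectors 8 to 11, inhibitory effectors 8 to 12, and traffic genes 6 to 11. In the same settings 64.6% to 80.7% of all genes did not overlap, and 38.0% to 52.7% were lower without overlap. Cd28 ranged from -0.87 to 0.12 and Lag3 from -0.75 to 1.47, both changing sign without Chd8-/- replicate 2. Without Chd8-/- replicate 1, the 2 receptors past that fold were Havcr2 and Lag3. A correlation of deviations of -0.012 showed no pairing of the libraries by replicate number, but it cannot exclude a shared litter or batch. With the number as a replicate block, 0 genes passed, 1336 had an unadjusted limma p under 0.05 and no receptor changed its side of the threshold. Planned peak values at the receptor genes from ATAC-seq and CHIP-seq were not run.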
